A study of Mus musculus with 34 samples.

Results

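Mbp, Mobp, Mal, Cldn11, Mag, Mog and Cnp are 7 genes that oligodendrocytes use to build myelin. They were chosen by name, with earlier results of these data known. In the platform annotation, 13 probe sets carried only 1 of these symbols, out of 12422 probe sets and 8251 named genes in all. Each gene is represented below by its brightest probe set over the 34 arrays. Mog, Mal and Cnp had a single probe set, and the other 4 genes had more.

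Oligodendrocytes wrap axons in layers of their own plasma membrane, and the compacted layers, myelin, speed the conduction of action potentials. In the forebrain myelin is densest in white matter tracts, such as those that border the hippocampus and underlie the neocortex, and it is still being laid down in juvenile mice. Mbp, Mobp and Mal belong to the compact myelin membrane, Cldn11 forms the tight junctions between its layers, Mag and Mog are adhesion molecules of its inner and outer surfaces, and Cnp is an enzyme of the uncompacted cytoplasm.

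The arrays measured RNA of 2 brain regions, the hippocampus and the neocortex, isolated from 17 male mice, on 1 array per tissue sample. The mice received kainate at 15 mg/kg, nicotine at 10 mg/kg or saline by intraperitoneal injection on postnatal day 23, 3 times with 2 h between injections, and those alive on postnatal day 30, 1 week later, were killed for RNA. Kainate is a glutamate receptor agonist that provokes seizures, and nicotine is an agonist of nicotinic acetylcholine receptors. This gave 5 kainate, 6 nicotine and 6 saline arrays of the hippocampus, and as many of the neocortex. Strain and genotype are not given in the sources used here, nor is the extent of white matter in the dissected tissue. Which hippocampal and neocortical arrays came from 1 mouse cannot be read from the labels, so every array entered the tests as an independent sample and p-values measure the spread between arrays.

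The signals came from Affymetrix arrays scaled by the authors to a trimmed mean near 1000.5 to 1000.6, so that each level is relative to the other RNAs on its array, and the array medians lay between 375.8 and 438.6. In saline mice all 7 tested hippocampal markers passed as higher in the hippocampus, and 6 of 7 neocortical markers passed as lower there. Gfap, the filament protein of reactive astrocytes, averaged 17940 ± 2090 (SD, n = 5) in the kainate hippocampus and 3801 ± 340 (SD, n = 6) in the saline hippocampus. Of the myelin genes, 6 were bright enough to be tested. Cnp was not: its mean signal of 44.5 put it at the 10th percentile of all probe sets, under the level of 129.7 that a mean had to reach.

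The promoter windows of Mobp, Mag and Mal are shown because they belong to genes that differed between the regions in every treatment (Mobp, Mag) or in none (Mal). They are RefSeq sequences of build GRCm38.p6, from 250 bases before to 50 after the gene start, read 5′ to 3′ along the gene. Capitals mark 2 short motifs, each searched on both strands: ACAAAG, the core bound by SOX factors such as Sox10, and CTGGNAC, the core bound by Myrf. A match on the opposite strand appears as the reverse complement, so that the first reads CTTTGT. Both factors drive myelin genes. The motifs overlap no other match in these windows. The windows lie at chr9:120149492-120149791 on the plus strand (Mobp), chr7:30914873-30915172 on the minus strand (Mag, the most upstream of 3 starts) and chr2:127656646-127656945 on the minus strand (Mal).
Mobp: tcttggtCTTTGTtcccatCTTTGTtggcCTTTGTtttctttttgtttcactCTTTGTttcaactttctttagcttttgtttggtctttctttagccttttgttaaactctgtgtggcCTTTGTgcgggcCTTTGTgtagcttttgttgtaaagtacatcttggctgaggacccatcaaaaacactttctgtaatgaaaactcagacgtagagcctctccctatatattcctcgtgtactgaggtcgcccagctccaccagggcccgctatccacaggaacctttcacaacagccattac
Mag: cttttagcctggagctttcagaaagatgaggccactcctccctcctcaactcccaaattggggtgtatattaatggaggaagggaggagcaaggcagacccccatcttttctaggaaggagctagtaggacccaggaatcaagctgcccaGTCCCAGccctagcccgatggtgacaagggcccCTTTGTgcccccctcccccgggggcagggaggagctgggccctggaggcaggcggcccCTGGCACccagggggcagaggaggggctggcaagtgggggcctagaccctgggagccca
Mal: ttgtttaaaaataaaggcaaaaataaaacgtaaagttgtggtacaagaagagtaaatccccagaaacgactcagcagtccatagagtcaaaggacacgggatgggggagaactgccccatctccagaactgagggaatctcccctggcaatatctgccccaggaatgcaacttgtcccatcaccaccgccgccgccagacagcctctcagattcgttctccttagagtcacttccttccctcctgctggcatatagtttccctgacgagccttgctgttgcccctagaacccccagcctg

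Mobp held 6 ACAAAG matches and 0 of CTGGNAC, Mag held 1 and 2, and Mal held 0 of either. Of all 32851 promoter windows, 18.7% held at least 1 ACAAAG and 0.198% held 3 or more, and 19.3% held at least 1 CTGGNAC. The windows of 6 of the 7 genes were searched, and 3 of these held each motif. In Cnp there were 1 and 2 matches, in Mog 0 and 1, and in Cldn11 0 of either. A match describes the letters in the window and was not tested as a binding site.

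In saline mice all 6 tested myelin genes had a higher mean in the hippocampus than in the neocortex, and 3 of them passed the test. Mag, Mobp and Cldn11 were higher by 1.40- to 1.49-fold. The other 3, Mog, Mbp and Mal, differed by 1.13- to 1.26-fold and did not pass. Passing means an adjusted p under 0.05 in limma with Benjamini-Hochberg adjustment over 8695 probe sets, of which 10.5% passed in this comparison and 5.36% passed as higher. Before adjustment 5 of the 6 genes and 21.7% of all probe sets had a p under 0.05. The median log2 fold change was 0.41 over the 6 genes and 0.003 over all probe sets tested. In bulk tissue, fewer cells of a type and less RNA per cell cannot be told apart.

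Mobp encodes a basic protein of the compacted membrane. Its signal ran from 14700 over a median of 18307 to 20852 in the saline hippocampus, against 12021, 12558 and 14060 for the lowest, median and highest array of the saline neocortex. The 6 hippocampal arrays lay above all 6 neocortical ones, a separation that 3.28% of the tested probe sets showed in this direction. The log2 fold change was 0.48 ± 0.09 SE (1.40-fold, adjusted p = 0.000222).

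Cldn11 encodes claudin 11, the tight junction protein of myelin. It had signals between 3419 and 4336.5 with a median of 3956 in the saline hippocampus, and between 2430 and 2905 with a median of 2702 in the saline neocortex. Here too the groups did not overlap. The difference was 0.53 ± 0.14 SE on the log2 scale (1.45-fold, adjusted p = 0.0101), and it no longer passed when only the largest cluster of arrays with like spike controls was compared (adjusted p = 0.0825), an alternative chosen after seeing the data. That cluster held 4 or 5 arrays of each hippocampal group and 3 of each neocortical group, and the like clusters within 1 region, used for the drug comparisons, held 3 of each group.

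Mag encodes the myelin-associated glycoprotein, which faces the axon. Its signal was 3467 at the lowest, 4617 at the median and 6837 at the highest in the saline hippocampus, against 2469, 3454 and 3931 in the saline neocortex. One hippocampal array, replicate 1, lay among the neocortical values, and the other 5 lay above all of them. The log2 fold change was 0.57 ± 0.15 SE (1.49-fold, adjusted p = 0.00645).

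The remaining 3 genes overlapped more. Mbp, the basic protein that holds the cytoplasmic faces of the membrane together, had 21078, 25608 and 28703 as lowest, median and highest signal in the saline hippocampus, against 18834, 21281 and 23597 in the saline neocortex. It exceeded every neocortical array in 4 of 6 hippocampal arrays, with a log2 fold change of 0.24 ± 0.09 SE and an adjusted p of 0.0947 in limma. Mog, a glycoprotein of the outermost myelin surface, spanned 1373 to 2026 in the saline hippocampus and 1024 to 1830 in the saline neocortex (0.34 ± 0.13 SE, adjusted p = 0.111). Mal, a raft-associated membrane protein also found in epithelia, spanned 3122 to 6761 in the saline hippocampus and 3950 to 6263 in the saline neocortex (0.17 ± 0.16 SE, adjusted p = 0.594). Mbp and Mog each passed when 1 particular array was left out, Mbp without saline hippocampus replicate 1 (adjusted p = 0.0422) and Mog without saline neocortex replicate 3 (adjusted p = 0.0281).

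**Figure D1:**
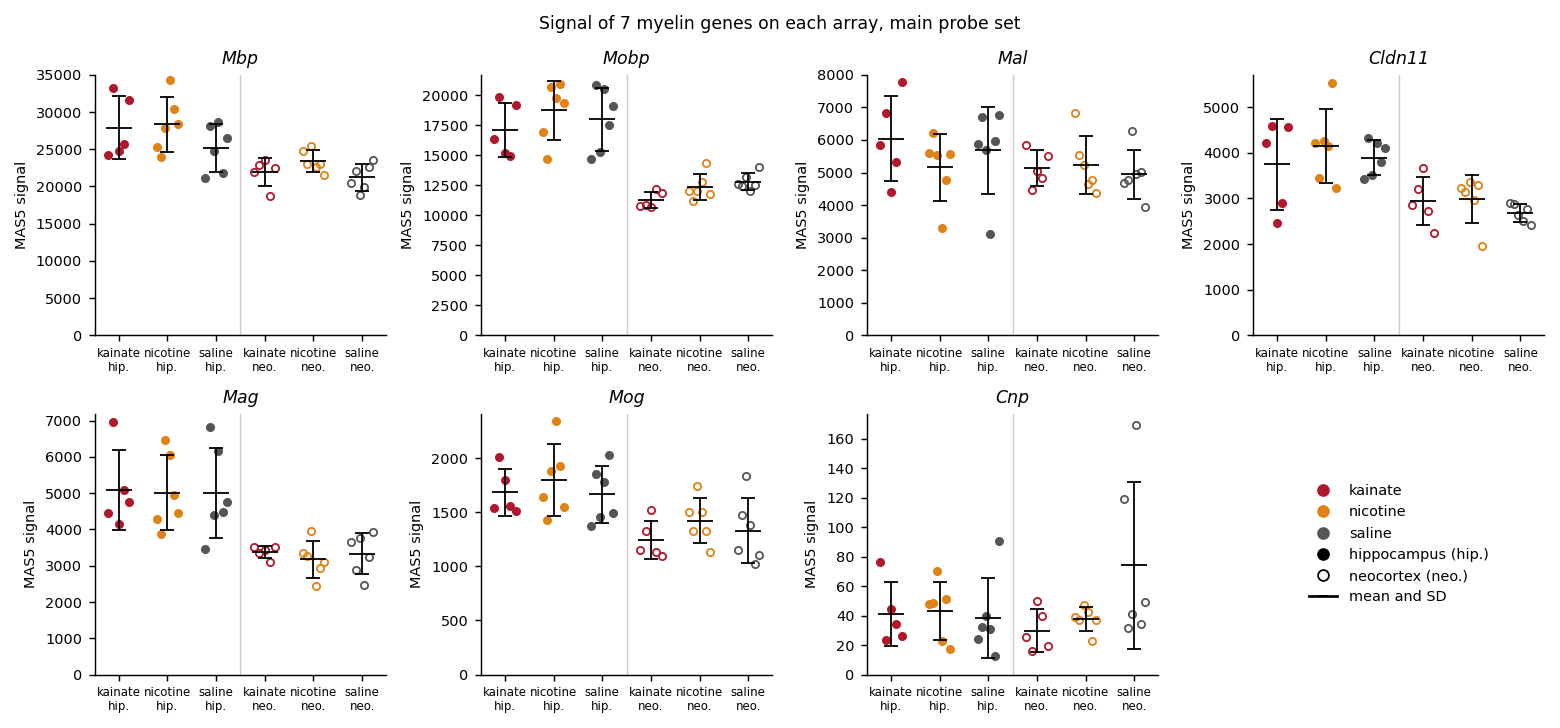
MAS5 signal (linear axis from 0) of each of the 7 genes on every array, with the group mean and SD as a black bar. Filled points are hippocampus and open points neocortex. On the main probe set of Mobp all 17 hippocampal arrays (14677 to 20989) lie above all 17 neocortical ones (10692 to 14327). The regions overlap on its dimmer probe sets, which are not drawn. The share of all probe sets that separate 17 from 17 arrays was not counted. Mal overlaps throughout.

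The mice injected with kainate or nicotine gave 2 further comparisons of the same regions. In kainate mice 4 of the 6 genes passed as higher in the hippocampus, Mobp, Mag, Mog and Mbp, where 13.0% of all tested probe sets passed and 6.81% passed as higher. In nicotine mice 3 passed as higher, Mag, Mobp and Cldn11, where 9.61% passed and 4.69% as higher. Mobp and Mag therefore passed in each treatment, and Mal in none. The means compared within each treatment came from different arrays. The spread, however, was estimated jointly from all 34 arrays, so the p-values of the treatments are not independent of each other. Before adjustment 5 of 6 genes had a p under 0.05 in either treatment, with 24.1% of all probe sets in kainate mice and 19.4% in nicotine mice. The median log2 fold change of the 6 genes was 0.39 in kainate mice and 0.40 in nicotine mice, against 0.01 in both for all probe sets tested.

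Mobp had signals of 16329, 19907, 15229, 14938 and 19160 in the 5 kainate hippocampi, against 10769, 10897, 10692, 12179 and 11879 in the kainate neocortices. Every hippocampal value was above every neocortical one, as for 5.49% of the tested probe sets (1.51-fold, log2 0.59 ± 0.10 SE, adjusted p = 3.81e-05). In nicotine mice the lowest, median and highest Mobp signals were 14677, 19574 and 20989 in the hippocampus and 11223, 12052 and 14327 in the neocortex, again without overlap, as for 3.06% of the tested probe sets. That fold change was also 1.51 (log2 0.59 ± 0.09 SE, adjusted p = 9.5e-06).

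Mag had signals of 4459.6, 6962.5, 4140.5, 5101.6 and 4763.3 in the kainate hippocampi, against 3529.8, 3344.2, 3425.7, 3103.5 and 3515.0 in the kainate neocortices. The groups did not overlap, and kainate hippocampus replicate 2 stood highest. The fold change was 1.48 (log2 0.56 ± 0.16 SE, adjusted p = 0.0137), and without that array the adjusted p was 0.0665. In nicotine mice Mag ran from 3875 over 4698 to 6468 in the hippocampus and from 2429 over 3183 to 3960 in the neocortex. There 5 of 6 hippocampal arrays exceeded all neocortical ones (1.57-fold, log2 0.65 ± 0.15 SE, adjusted p = 0.00185).

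Mbp had signals of 24242, 33238, 24804, 25673 and 31613 in the kainate hippocampi, against 21990.5, 22919, 23590, 18664 and 22428 in the kainate neocortices. The groups did not overlap, with a log2 fold change of 0.34 ± 0.10 SE (1.27-fold, adjusted p = 0.0168). In nicotine mice it had 23931, 28102 and 34262.5 as lowest, median and highest signal in the hippocampus and 21558, 23059 and 25414 in the neocortex (1.20-fold, log2 0.27 ± 0.09 SE, adjusted p = 0.0552). Mog had signals of 1538, 2008, 1802, 1555 and 1516 in the kainate hippocampi, against 1154, 1323, 1520, 1135 and 1093 in the kainate neocortices, and 1 hippocampal array overlapped the highest neocortical one. Its log2 fold change was 0.43 ± 0.15 SE (1.35-fold, adjusted p = 0.0437). In nicotine mice it was 0.33 ± 0.13 SE (adjusted p = 0.139).

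Cldn11 spread more widely in the drug groups. It had signals of 4213.5, 4595.3, 2468.8, 2898.5 and 4565.4 in the kainate hippocampi, against 2865.7, 3211.8, 3669.1, 2735.6 and 2241.1 in the kainate neocortices. The groups overlapped and the difference did not pass (1.25-fold, adjusted p = 0.2). In nicotine mice it spanned 3221 to 5541 in the hippocampus and 1966 to 3359 in the neocortex, with 5 of 6 hippocampal arrays above all neocortical ones (1.38-fold, log2 0.47 ± 0.14 SE, adjusted p = 0.0286). Mal had log2 fold changes of 0.21 ± 0.17 SE in kainate mice and -0.03 ± 0.16 SE in nicotine mice, neither of which passed (adjusted p = 0.518 and 0.958). Its signals were 5838, 6841.5, 4415, 5322 and 7778 in the kainate hippocampi, against 5853, 4475, 5043, 4819 and 5518.5 in the kainate neocortices, which overlapped. Its nicotine arrays spanned 3282 to 6228 in the hippocampus and 4380 to 6818 in the neocortex.

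These calls were not all equally firm. Mobp passed in each of the 3 treatments under every alternative scaling, filter, block and left-out array that was run on its main probe set. In kainate mice Mbp no longer passed under median centring (adjusted p = 0.0804), with the kainate groups fitted alone (0.0544) or in the largest cluster of arrays with like spike controls (0.0663). Mog no longer passed there under 5 alternative settings (0.057 to 0.192). With 1 array left out in kainate mice, Mog passed in only 3 of 10 fits and Mbp in 7 of 10 (adjusted p up to 0.127 and 0.0735). In nicotine mice Cldn11 no longer passed under median centring (0.0544), with spike clusters as a block (0.053) or when any of 5 of the 12 arrays was left out. Neither Cldn11 (0.324) nor Mag (0.0627) passed there in the largest spike cluster. Mbp in nicotine mice passed with the filter at the 50th percentile (0.0427). In kainate mice 1 of 6 genes passed without kainate hippocampus replicate 2 and 2 passed without kainate neocortex replicate 4, and median centring of the arrays also left 2, Mag and Mobp.

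**Figure D2:**
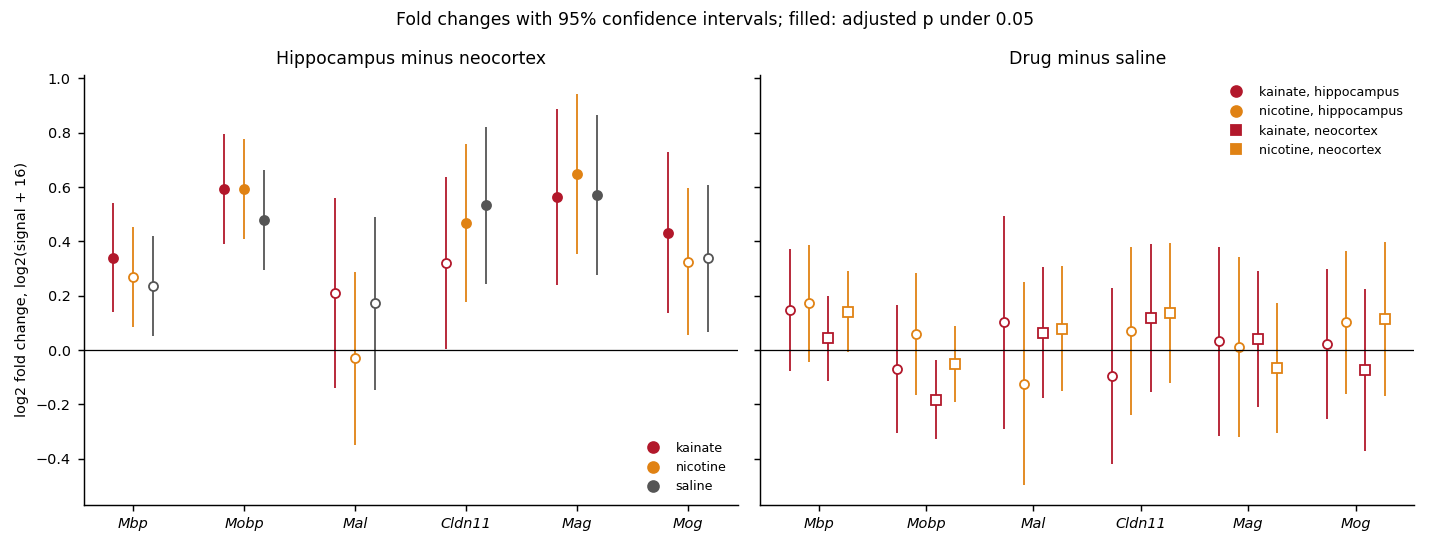
Log2 fold changes with 95% confidence intervals for the 6 tested genes; the left panel gives hippocampus minus neocortex within each treatment and the right panel each drug minus saline within a region. Filled symbols passed at an adjusted p under 0.05: 10 do on the left and 0 on the right.

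Probe sets of the same gene did not always move alike. For Mobp, the next brightest probe set gave log2 fold changes (hippocampus minus neocortex) of 0.54 in kainate mice, 0.45 in nicotine mice and 0.21 in saline mice, of which the first 2 passed (adjusted p = 0.0105, 0.0243 and 0.381). For Mbp, the dimmer probe set, with a mean signal of 1693 over 34 arrays against 24655 for the main one, gave -0.13, -0.20 and -0.25 in the same order. Those values oppose the main probe set and did not pass (adjusted p = 0.559, 0.328 and 0.147). The dim second probe sets of Mag and Cldn11, at mean signals of 409 and 157.2, passed in no comparison. On each of the dimmer Mobp probe sets the regions overlapped over all treatments. The dimmest spanned 2729 to 5720 in the hippocampus and 2208 to 4498 in the neocortex. In saline mice 3 of the 12 member probe sets tested passed as higher, all of them main ones, so none of the dimmer Mobp probe sets did. With the brightest of the dimmer probe sets in place of the main one, 2 of the 6 genes passed in kainate mice, 1 in nicotine mice and 0 in saline mice. Over 17 arrays of the hippocampus, deviations from the group mean on the main and the dimmer probe set correlated at r = -0.07 for Mbp, 0.69 for Mobp, 0.26 for Mag and -0.32 for Cldn11.

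Sorted by mean, the hippocampal groups filled the upper 3 places and the neocortical groups the lower 3 for Mbp, Mog, Mag, Mobp and Cldn11. For Mbp these were nicotine, kainate and saline hippocampus (28350 ± 3700, 27910 ± 4190 and 25160 ± 3210), then nicotine, kainate and saline neocortex (23420 ± 1430, 21920 ± 1910 and 21260 ± 1810). For Mobp they were nicotine, saline and kainate hippocampus (18750 ± 2460, 18000 ± 2620 and 17110 ± 2290), then saline, nicotine and kainate neocortex (12800 ± 721, 12370 ± 1080 and 11280 ± 693), all as mean ± SD with n = 6, or n = 5 for kainate. The means of Mal lay between 4941 and 6039 with the regions interleaved. For Cnp they lay between 29.88 and 74.15, with saline neocortex at the top, where the arrays ran from 31.6 to 169. Of the 35 pairs of neighbours in these orders, 0 differed after adjustment in two-sided exact permutation tests, and 2 had an unadjusted p under 0.05. Those were the steps between kainate hippocampus and saline neocortex for Mobp (exact p = 0.00433, adjusted p = 0.152) and between saline hippocampus and kainate neocortex for Mag (exact p = 0.013, adjusted p = 0.227). The Mobp groups did not overlap, and 0.00433 is the smallest exact p that groups of 5 and 6 arrays allow. A single step therefore could not pass over 35 tests, and the neighbours were set by sorting the same means. The count of 0 cannot show that neighbouring groups were alike.

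Against saline, neither drug gave a difference in any of the 6 myelin genes that passed the test. This held in the hippocampus and in the neocortex, 1 week after the injections, with 0 of 6 genes passing in each of the 4 comparisons by limma. In the same tests 2.79% of all probe sets passed for kainate in the hippocampus and 0.0115% for kainate in the neocortex, and 0 passed for nicotine in either region. The log2 fold changes of the members lay between -0.18 and 0.17.

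With kainate in the hippocampus, the log2 fold changes were 0.15 ± 0.11 SE for Mbp, -0.07 ± 0.11 SE for Mobp, 0.10 ± 0.19 SE for Mal, -0.10 ± 0.16 SE for Cldn11, 0.03 ± 0.17 SE for Mag and 0.02 ± 0.13 SE for Mog. Adjusted p-values ran from 0.585 to 0.971. Before adjustment 0 of 6 genes and 14.2% of all probe sets had a p under 0.05. Array medians were 0.112 higher on the log2 scale in kainate than in saline hippocampus, and relative to that shift the values of Mog, Mag and Mal were -0.09, -0.08 and -0.01. Over the 6 confidence intervals, given as fold changes, the lowest bound was 0.748 for Cldn11 and the highest 1.41 for Mal.

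With kainate in the neocortex, Mobp was the only member under 0.05 before adjustment. Its signals, given above for the kainate neocortices, lay below all saline neocortices in 4 of 5 arrays. The log2 fold change was -0.18 ± 0.07 SE (unadjusted p = 0.0168, adjusted p = 0.844), and -0.27 ± 0.09 SE on its next brightest probe set (adjusted p = 0.811). Over all probe sets, 5.57% were under 0.05 before adjustment in this comparison. The other 5 genes lay between -0.07 and 0.12.

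Nicotine gave log2 fold changes between -0.12 (Mal) and 0.17 (Mbp) in the hippocampus and between -0.06 (Mag) and 0.14 (Mbp) in the neocortex, with adjusted p-values from 0.865 to 0.992 and from 0.527 to 0.875. Before adjustment 0 of these 12 values had a p under 0.05, against 5.80% of all probe sets in the hippocampus and 9.60% in the neocortex. The difference of the drug effects between the regions was also tested with all 34 arrays. For kainate 0 of 6 genes and 0.794% of all probe sets passed, and for nicotine 0 of either, with member values from -0.21 to 0.11 and from -0.20 to 0.11. Before adjustment 0 members were under 0.05 in either test, against 8.98% of all probe sets for kainate and 3.77% for nicotine.

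Within the groups the myelin genes varied together between hippocampal arrays. After the group means were removed, the median Pearson r of the 15 pairs of the 6 tested genes over 17 arrays was 0.53 in the hippocampus and 0.06 in the neocortex. The median over all pairs of tested probe sets was 0. The hippocampal pairs with Mal, 5 in all, ran from -0.44 to 0.18. Without Mal, set apart after its values were seen, all 10 pairs were positive in the hippocampus with a median of 0.64, and 6 of 10 in the neocortex with a median of 0.05.

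Of the 15 pairs in the hippocampus, 5 passed after adjustment over the 30 relations computed in both regions (permutation test with 100000 resamples within groups, two-sided). Mbp and Mobp had the highest coefficient, r = 0.83 (Spearman's rho = 0.80, permutation p = 0.00055 and 0.00104, adjusted p = 0.0055 and 0.0104). Mag and Mobp had r = 0.80 (rho = 0.83, p = 0.00042 and 0.00023, adjusted p = 0.0055 and 0.0069). Mbp and Mag had r = 0.78 (rho = 0.77, p = 0.00055 and 0.00139, adjusted p = 0.0055 and 0.0104). The pair of compact-membrane genes and the axon-facing Mag thus formed the 3 tightest pairs.

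Mobp also correlated with Cldn11 at r = 0.695 (rho = 0.765, p = 0.00309 and 0.00095, adjusted p = 0.0232 and 0.0104). Mog correlated with Mag at r = 0.69 (rho = 0.67, p = 0.00575 and 0.00823, adjusted p = 0.0345 and 0.0494). Without the 2 arrays farthest from the median of the first gene, these 5 coefficients were between 0.681 and 0.845. Among the 15 neocortical pairs 0 passed after adjustment and 1, Mog and Cldn11, had an unadjusted p under 0.05 (r = 0.52). The difference between the regions was not tested. The arrays share the scaling to 1 trimmed mean. With the means of 3 clusters of arrays with like spike-in controls removed, the median r of the 15 pairs was 0.59 in the hippocampus and 0.14 in the neocortex.

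On some arrays several genes deviated together. Mbp, Mobp, Cldn11, Mag and Mog were all above their group mean on 5 of 17 hippocampal arrays (kainate replicate 2, nicotine replicates 4 and 5, saline replicates 2 and 4). All 5 were below it on 3 others, nicotine replicate 2 and saline replicates 1 and 3. Some of these deviations were slight, such as 0.0 after rounding for Mag on nicotine replicate 5 and -0.01 for Mbp on saline replicate 3. A like count for other sets of 5 genes was not made. In the neocortex the 5 genes lay on one side of the mean together on 1 of 17 arrays, nicotine replicate 6, where they were below. The deviation of Mag was 0.48 on the log2 scale on kainate hippocampus replicate 2 and saline hippocampus replicate 2 and -0.49 on saline hippocampus replicate 1. Mal was below its mean on 3 of the 5 high arrays, by -0.62 and -0.08 on nicotine hippocampus replicates 4 and 5 and by -0.82 on saline hippocampus replicate 4.

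**Figure D3:**
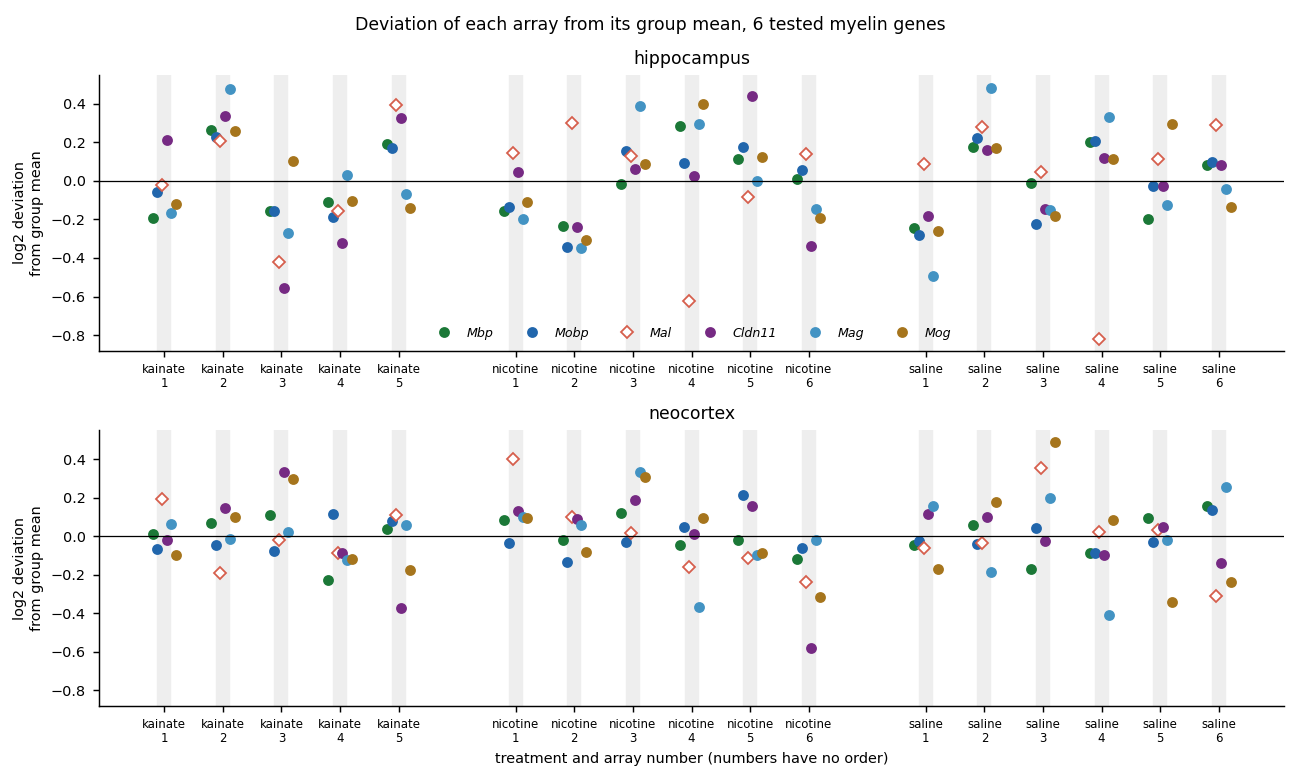
Log2 deviation of each of the 6 tested genes from its group mean on every array, hippocampus above and neocortex below, with Mal drawn as open diamonds. On kainate hippocampus replicate 2, for example, the other 5 genes lie between 0.23 and 0.48.

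**Figure D4:**
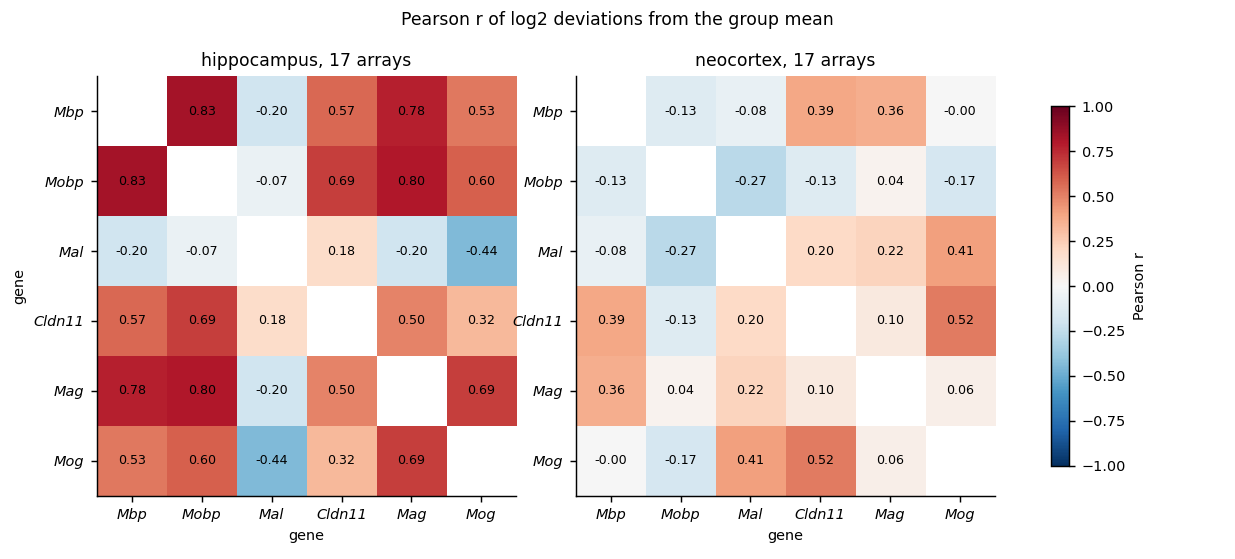
Pearson r of the deviations from group means for each pair of the 6 tested genes over 17 arrays, hippocampus on the left and neocortex on the right. In the hippocampus the 10 pairs without Mal run from 0.32 to 0.83, and in the neocortex all 15 pairs run from -0.27 to 0.52.

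The spread of a gene between arrays is given for each region as a description, without a test. After group means were removed, the SD of Mobp was 0.203 in the hippocampus and 0.099 in the neocortex on the log2 scale, a ratio of 2.05. The median ratio over all tested probe sets was 1.042, and that of Mobp stood at the 96.7th percentile. In the hippocampus and the neocortex Mal had 0.358 and 0.204 (ratio 1.755), Mbp 0.194 and 0.115 (ratio 1.687) and Mag 0.314 and 0.211 (ratio 1.488). Cldn11, at 0.287 and 0.232, and Mog, at 0.224 and 0.247, were closer to the median ratio. The values of Mbp and Cldn11 depended on the setting. Under quantile normalization the SD of Mbp was 0.154 in the hippocampus and 0.159 in the neocortex, a ratio of 0.97 that turns the direction. With control cluster means removed, the SD of Cldn11 was 0.285 in the hippocampus and 0.145 in the neocortex (ratio 1.97), and with spike cluster means removed it was 0.299 and 0.14 (ratio 2.14), no longer near the median ratio. Against probe sets of like level, Mal stood at the 97.7th percentile in the hippocampus and the 73.7th in the neocortex, and Mobp at the 79.8th and the 12.7th. The hippocampal spread of Mal included deviations of -0.82 on saline replicate 4 and -0.62 on nicotine replicate 4. Its spread without these arrays was not computed. Cnp, near the bottom of the array's range, had an SD of 0.559 in the hippocampus and 0.562 in the neocortex. Dimmer probe sets of the same genes gave ratios of 2.032, 2.104 and 0.996 for Mobp, 1.169 for Mbp, 0.862 for Mag and 1.305 for Cldn11. The wider hippocampal spread of Mobp, Mbp and Mag thus depended on the probe set.

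Summed over the 6 genes, the signal ran from 52859 over 56620 to 73553 in the kainate hippocampus, from 53594 over 64606 to 69915 in the nicotine hippocampus and from 49908 over 59126 to 68758 in the saline hippocampus. The neocortical sums ran from 42636 over 46171 to 47939 with kainate, from 43946 over 48635 to 51766 with nicotine and from 43236 over 46514 to 49070 with saline. In each treatment the lowest hippocampal sum thus exceeded the highest neocortical one. Most of each sum came from the main probe sets of Mbp and Mobp, with means of 25160 and 18000 in the saline hippocampus. The sums therefore largely repeat the values of these genes, and how often sums of other genes separate the regions was not counted. Summed markers of other cells and tissues were 97874 to 111151 in the saline hippocampus and 82113 to 97876 in the saline neocortex for astrocytes, of which 4 of 9 tested markers passed as higher. For neurons the sums were 131792 to 153331 in the saline hippocampus and 136938 to 150320 in the saline neocortex, with 2 of 12 markers higher and 3 lower. For microglia they were 17665 to 20364 in the hippocampus and 17511 to 20243 in the neocortex, with 0 of 11 passing by limma and 0 under 0.05 before adjustment. For striatum and thalamus, which border the dissected regions, they were 5683 to 6987 in the hippocampus and 4240 to 5223 in the neocortex, with 2 of 6 higher and 1 lower. The 2 higher were Calb2 (means 2019 and 841.7 in the saline hippocampus and neocortex) and Prkcd (1649 and 1058). Tac1 was the lower 1 (221 and 392.3). For choroid plexus and meninges the sums were 30939 to 56384 in the hippocampus and 37918 to 53507 in the neocortex, with 2 of 12 higher and 1 lower. The higher ones were Dcn (3.05-fold) and Folr1 (2.57-fold), and Fmod was lower. Ptgds was the brightest gene in these sums (means 22510 and 27630 in the saline hippocampus and neocortex), so like sums do not show like amounts of choroid plexus. Ttr, the defining choroid plexus gene, ranged from 199.6 to 8215 in the saline hippocampus and from 185.8 to 1720 in the saline neocortex. Of all probe sets tested between the saline regions, 10.5% passed and 5.36% passed as higher. The part of astrocytes or neighbouring tissue in the difference of the myelin genes was not tested.

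Other genes of the myelinating cell were read from lists of known genes. Of 15 tested genes for further myelin and oligodendrocyte proteins, 5 passed as higher and 1 as lower in the saline hippocampus than in the saline neocortex, with a median log2 fold change of 0.30. Over all probe sets tested, 10.5% passed in that comparison and 5.36% passed as higher. Efnb3, an ephrin of myelin and neurons, averaged 5206 ± 556 in the saline hippocampus and 2601 ± 229 in the saline neocortex (SD, n = 6 each, 1.99-fold, adjusted p = 5.75e-12 in limma). Ndrg1, a cytoplasmic protein of myelinating cells, was 1.51-fold higher (adjusted p = 6.22e-07), and Car2, the carbonic anhydrase of oligodendrocytes, was 1.27-fold higher (adjusted p = 0.000322). Cd9, a tetraspanin, was 1.60-fold higher and Gsn, the actin-severing protein gelsolin, 1.27-fold (adjusted p = 0.0219 and 0.0323). Pmp22, a peripheral myelin protein, was 1.36-fold lower (adjusted p = 0.0395). Cd9 lost its call with control clusters as a block (adjusted p = 0.0816) and without either of 2 arrays, saline neocortex replicate 3 or saline hippocampus replicate 2. Gsn lost it under 5 and Pmp22 under 7 alternative settings (adjusted p up to 0.381 and 0.142). In kainate mice 7 of these 15 genes were higher and 0 lower, and in nicotine mice 5 were higher and 1 lower. The shares of all probe sets that passed as higher were 6.81% and 4.69%.

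Lipid synthesis genes supply the cholesterol and galactolipids of myelin. In saline mice 1 of 17 passed as higher in the hippocampus and 0 as lower, with a median of 0.03. The gene was Degs1, a ceramide desaturase (1.36-fold, adjusted p = 0.0161 in limma, and 0.285 in the largest cluster of arrays with like spike controls, where Id4 and Ptprz1, named next, had 0.32 and 0.0547). Of 10 transcription factors of the lineage, 2 passed as higher and 1 as lower. Myrf, the factor that switches on myelin genes, averaged 1330 ± 227 in the saline hippocampus and 1001 ± 225 in the saline neocortex (SD, n = 6 each, adjusted p = 0.0396 in limma), a call lost when any of 8 of the 12 arrays was left out. Id4 was 1.26-fold higher and Id2 1.49-fold lower (adjusted p = 0.0152 and 0.00471); both encode inhibitors of helix-loop-helix factors. Sox10, the lineage's SOX factor, averaged 2160 ± 392 in the saline hippocampus and 1875 ± 273 in the saline neocortex (SD, n = 6 each), which did not pass (adjusted p = 0.364). Of 6 precursor genes, 1 passed, Ptprz1, a receptor phosphatase also made by astrocytes (1.49-fold higher, adjusted p = 0.00104), while Pdgfra, the growth factor receptor of precursors, had a log2 fold change of 0.09 (adjusted p = 0.821).

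In the hippocampus after kainate, 0 of the 6 myelin genes and 2.79% of all probe sets tested passed. There 6 of the 17 lipid synthesis genes passed as lower and 0 as higher, with a median of -0.23 against 0.011 for all probe sets tested. All 6 belong to sterol or fatty acid synthesis. The log2 fold changes were -1.03 for Idi1, -0.62 for Fdps, -0.60 for Sqle, -0.57 for Fdft1, -0.54 for Hmgcs1 and -0.40 for Scd1, with adjusted p-values from 5.42e-05 for Idi1 to 0.0331 for Fdft1. In the largest cluster of arrays with like spike controls the adjusted p-values of these 6 were 0.0507 to 0.237. Fdft1 and Scd1 each passed in only 6 of 11 limma fits with 1 array left out (adjusted p up to 0.0949 and 0.0852). Fdft1 also lost its call with a replicate block, and Scd1 with control clusters as a block. The 6 lipid genes are expressed by astrocytes and neurons too, and 11 of 11 microglial and 5 of 9 astrocyte markers passed as higher in the same comparison. The part of those cells in the lower lipid genes was not tested. Cd9 and Pmp22 passed as higher there (2.09- and 1.53-fold, adjusted p = 0.00379 and 0.0476), as did Ptprz1 (1.41-fold, adjusted p = 0.00807). Cd9, Ptprz1 and Pmp22 lost these calls in the largest spike cluster (adjusted p = 0.43, 0.297 and 0.634), Ptprz1 also under median centring, and Pmp22 when any of 10 of the 11 arrays was left out. In the other 3 drug comparisons 0 of 48 genes of the 4 lists passed by limma, and 4 for kainate in the neocortex and 3 and 6 for nicotine in the hippocampus and neocortex were under 0.05 before adjustment. Over all probe sets the shares under 0.05 in the same order were 5.57%, 5.80% and 9.60%.

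The genes that varied most like the myelin genes were ranked by the mean Pearson r of their deviations with the 6 tested genes over 34 arrays, among 6424 genes. The 10 highest were Map4, Ccdc80, Gjb1, Gnptg, Il18, Rrad, Phldb1, Gsn, Rcc1 and Septin4, with mean r from 0.427 for Map4 to 0.365 for Septin4. Map4, a microtubule-associated protein, had its highest coefficient with Cldn11 (0.74), and Septin4, a septin of myelin and neurons, with Mobp (0.76). Gjb1 encodes connexin 32, a gap junction protein of oligodendrocytes, and had its highest with Mbp (0.56). For 8 of the 10 the lowest coefficient was with Mal. Map4 was also higher in the saline hippocampus than in the saline neocortex, with a log2 fold change of 0.72 (adjusted p = 2.92e-06 in limma). Of the others only Gsn passed there (0.34, adjusted p = 0.0323 in limma). Ccdc80, Rrad, Il18, Gnptg and Rcc1 had negative values, from -0.39 for Ccdc80 to -0.03 for Rcc1, which did not pass. Ccdc80 was dim, with signals from 38.3 to 240.3.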

How the data were processed

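Total RNA of each tissue was labelled as biotin-tagged cRNA and hybridised to Affymetrix arrays, per the labels' protocols. The authors deposited 1 MAS5 signal (a linear intensity) per probe set and array, per the submitters' processing notes; the values show scaling of each array to 1 trimmed mean (2% trimmed). The version of MAS5, detection calls and scan dates are not given in the sources used here. Here, 66 control probe sets were removed and log2(signal + 16) was tested with limma 3.58.1 (R 4.3.3; lmFit, eBayes with intensity trend) on probe sets at or above the 30th percentile of mean level, with Benjamini-Hochberg adjustment; fold changes are on this scale and understate those of dim probe sets. Region comparisons and interactions used all 34 arrays, drug comparisons the 17 of a region. The number of arrays limits the precision. Permutation tests used scipy 1.17.1 and numpy 2.4.6. The fits were tested on simulated data.

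Probe sets were named from the platform annotation: 10833 carried 1 symbol, 396 several and 1193 none, and 10817 were matched to current symbols. The members and lists were chosen with earlier results of these data known. Besides the members, the genes named are the up to 4 highest and lowest that passed between the saline regions in each of 4 lists (myelin proteins, lipid synthesis, lineage transcription factors, precursors), Sox10, Myrf, Pdgfra, Gfap, and the 10 genes most like the members. The genes named as passing after kainate, and Ttr, Ptgds, Dcn, Folr1, Fmod, Calb2, Prkcd and Tac1, were chosen after their values were seen. Alternatives were pseudocounts of 1 and 64, other filters, median centring, quantile normalization, array weights, clusters of control probe sets as a block, a replicate block, other array sets and leaving out each array. Same-numbered arrays of the regions did not deviate together (median r from -0.041 to 0.028 by treatment). Within a region, same-numbered arrays of a drug and saline had median r from 0.039 to 0.103, against -0.026 to 0.001 for other numbers. Clusters of like spike controls in the hippocampus also followed the replicate numbers in each treatment. The main fits did not model this array structure, and its source was not tested.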

Additional observations from a re-analysis of the deposited data

Results flagged for a closer look

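Each group of 5 or 6 arrays was examined for a highest or lowest value standing apart from the rest by a gap that is large for the group's range; 42 groups were examined, and chance gives about 1 in 20. Mal on saline hippocampus replicate 4 had a signal of 3122.3, with the nearest other array at 5690, although Mbp, Mobp, Mag, Mog and Cldn11 were above their group means on that array. Cldn11 on nicotine neocortex replicate 6 had 1966.4, with the nearest at 2973. Cnp on nicotine neocortex replicate 5 had 22.9, with the nearest at 36.7, where signals are near the bottom of the array's range.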

How the results depend on the processing

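The counts of myelin genes passing between the regions were 4 in kainate, 3 in nicotine and 3 in saline mice. They were 2, 2 and 3 under median centring, 2, 1 and 2 in the largest spike cluster alone and 3, 2 and 3 with spike clusters as a block (both chosen after seeing the data), 2, 1 and 0 with the brightest of the dimmer probe sets, and 1 to 4, 2 to 4 and 3 to 4 when 1 array was left out; the cause was not tested. With a replicate block, which the labels do not support as a paired design, they were 4, 3 and 3. All drug and interaction counts were 0 under every alternative run; the largest spike cluster was not fitted for interactions.

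Signs that turned were all of values that did not pass. Median centring gave log2 values of -0.09, -0.08 and -0.009 for Mog, Mag and Mal with kainate in the hippocampus, -0.052 and -0.004 for Mag and Mobp with nicotine there, and 0.003 for Rcc1 between the saline regions. The replicate block gave -0.011 for Mog with kainate in the hippocampus. Array weights gave 0.02 for Cldn11 with kainate and -0.017 for Mag with nicotine in the hippocampus, and 0.016 for Rcc1. The largest spike cluster alone gave -0.11 for Mag (kainate hippocampus), -0.029 for Mal (kainate neocortex), -0.095, -0.04 and -0.022 for Mag, Mobp and Cldn11 (nicotine hippocampus) and 0.041 for Mag (nicotine neocortex). Leaving out 1 array in turn gave, between regions, -0.09 to 0.094 for Mal with nicotine, and -0.263 to 0.045 for Gnptg and -0.068 to 0.052 for Rcc1 with saline. With kainate it gave -0.044 to 0.081 for Mog, -0.087 to 0.129 for Mag, -0.061 to 0.208 for Mal and -0.18 to 0.043 for Cldn11 in the hippocampus, and -0.147 to 0.024 for Mog and -0.041 to 0.092 for Mag in the neocortex. With nicotine it gave -0.087 to 0.109 for Mag, -0.288 to 0.0 for Mal and -0.017 to 0.139 for Cldn11 in the hippocampus, and -0.146 to 0.01 for Mag and -0.001 to 0.149 for Mal in the neocortex.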
